A study of Mus musculus with 15 samples.

Results

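The nuclear-encoded genes of oxidative phosphorylation were compared between *Fmr1* KO and WT mice in the ventral striatum of both sexes. They were taken by symbol: every gene of the expression table whose name begins with Nduf, Cox followed by 4 to 8, Uqcr or Atp5, and whose mean expression value over the 15 mice was at least 3. Of 24982 symbols in the table, 90 carried such a name and 85 met the minimum, out of 15261 genes that met it in all. By symbol the 85 fell into 37 genes of complex I, 8 complex I assembly factors, 8 genes of complex III, 15 of complex IV and 17 of complex V. *Atp5s* is kept under complex V by its symbol alone. All 85 matched a protein-coding gene of the GENCODE M21 annotation of GRCm38, the same genome as UCSC mm10. They lie on 19 chromosomes, with 3 of them on X.

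RNA values were at hand for 4 *Fmr1* KO females, 3 *Fmr1* KO males, 4 WT females and 4 WT males. The mice had been through a battery of behavioral tests as adults aged 2 to 3 months. The tissue was taken after these tests, at an age the paper does not state. Each sample held the ventral striatum of both hemispheres of 1 mouse. The authors had excluded a further KO male as an outlier in a principal component analysis. The KO males were thus selected by their expression. The *Fmr1* KO mice, a model of fragile X syndrome on the C57BL/6J background, lack a working *Fmr1* gene in every cell of the body, and their line was kept by crossing hemizygous males with homozygous females. The controls were WT C57BL/6J mice and not littermates of the KO mice, so genotype and line cannot be told apart. Expression is given as rlog, the regularized log2 value of DESeq2, which corrects for library size and draws a gene's values together where its counts are low.

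Oxidative phosphorylation takes place at the inner membrane of mitochondria. Complexes I, III and IV pass electrons from NADH to oxygen and pump protons across the membrane, and complex V (ATP synthase) lets the protons back to make ATP. Most of the subunits are encoded in the nucleus and imported, the others are encoded in mitochondrial DNA, and neurons depend on this pathway for most of the ATP that ion pumping and synaptic transmission use. None of the 13 mitochondrially encoded subunits was among the genes tested, so the nuclear-encoded genes alone are described.

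*Fmr1* itself had rlog values of 9.82 to 10.08 in KO females and 9.87 to 9.96 in KO males, against 10.62 to 10.83 in WT females and 10.66 to 10.88 in WT males, with no overlap between the genotypes. In KO striatum the paper found *Fmr1* RNA by qPCR at very low levels, and no *Fmr1* protein by Western blot. The rlog values are no measure of that protein. All 20 markers of striatal projection neurons, the main cell type of the ventral striatum, were expressed, with mean rlog values of 10.88 to 14.42. All 20 were on the lower side in the KO mice (median log2 difference -0.48), and 15 of 15 markers of thalamic, hypothalamic and septal-pallidal neurons were on the higher side (median 0.56). None of those 15 was called, and single mice differed widely. The score of a list is the mean rlog of its genes, each centred on its mean over all mice. The thalamic, hypothalamic and septal-pallidal score was 1.02 in KO male 1 and 1.05 in KO female 3. It was -0.49 in KO female 2 and -0.34 in KO female 4. In WT mice it ran from -0.45 to 0.21 in females and -0.52 to 0.16 in males. The projection neuron scores of the genotypes overlapped in each sex. Of the projection neuron markers *Pdyn* (-0.52, adjusted p = 0.0461) and *Penk* (-0.48, adjusted p = 0.0366, both limma) were called. The 10 microglial markers were all on the lower side too (median -0.15). With the projection neuron score or the thalamic, hypothalamic and septal-pallidal score in the model, the median log2 difference of the respiratory chain genes between genotypes was -0.056 and -0.061. The share of all genes called was then 0.00655% and 0.0721%, so counts of called genes in these fits say nothing of the respiratory chain. In RNA from whole tissue, fewer cells of a type and less RNA per cell cannot be told apart. Correlations across genes between mice within a group were 0.992 to 0.999. WT male 1 and KO female 4 stood at the ends of the range of the oxidative phosphorylation genes. WT male 1 was the highest mouse for 65 of the 85 genes, and KO female 4 the lowest for 27.

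The genes varied widely in level, and this was compared per length (rlog minus log2 of the coding transcript length in kilobases) in the WT mice. *Atp5b*, the catalytic beta subunit of ATP synthase, had the highest level per length at 13.18, and *Cox4i1*, the ubiquitous isoform of complex IV subunit 4, followed at 12.79. *Cox4i1* is not part of the catalytic core of its enzyme, which is encoded in mitochondrial DNA. The lowest were isoforms best known from other tissues or conditions: *Cox7a1*, a heart and skeletal muscle isoform, at 5.06, *Cox4i2*, the isoform of lung and hypoxia, at 5.74, *Ndufa4l2*, a hypoxia-induced relative of *Ndufa4*, at 5.77, *Cox6b2*, a testis isoform, at 5.83, and *Cox6a2*, the muscle isoform of subunit 6a, at 6.10. The complex I assembly factors, which build the enzyme without staying in it, had a median level per length of 8.17. The medians were 10.32 for complex I, 10.82 for complex III, 10.87 for complex IV and 11.03 for complex V.

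The minimum on the mean value removed 5 symbols. These were *Cox8c* (mean rlog -2.27), *Ndufs5* (-1.22), *Cox8b* (1.48), *Ndufb4c* (1.53), which is annotated as a pseudogene, and *Cox7b2* (2.26). The genes just above it were *Cox7a1* (3.91), *Cox6b2* (4.66) and *Cox4i2* (5.24). *Ndufs5* encodes a subunit of complex I that all tissues use, and a value this low for it is listed here as the table gives it.

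The first comparison asked whether the respiratory chain genes differed between *Fmr1* KO and WT mice over both sexes. Across the 85 genes the differences were small and mostly on the lower side in the KO mice, and none of them passed the test. The median log2 difference of *Fmr1* KO from WT was -0.033, with 60 genes below 0 and 25 above, against a median of 0.0021 and 48.9% of genes below 0 over all genes tested. No gene was called (limma, adjusted p under 0.05, n = 7 KO and 8 WT mice), where 1.28% of all genes tested were called. The paper used DESeq2 on read counts (FDR under 0.05) and reported many more differing genes, over both sexes and in each sex. The shares called here therefore hold for limma on rlog values. At an unadjusted p under 0.05 there were 11 lower and 1 higher, or 14.1% of the 85, against 23.4% of all genes tested. The share of the 85 genes at that level was therefore below the background. Values of the KO and WT mice overlapped for each of the 85 genes, while 0.21% of all genes tested had every KO mouse below every WT mouse and 0.157% every KO mouse above.

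The intervals of these differences were narrow. The 95% confidence interval of the difference lay within 0.5 log2 units of 0 for all 85 genes and within 0.25 for 79 of them. The exceptions to the second bound were *Cox6a2*, *Ndufa7*, *Ndufb7*, *Ndufs7*, *Uqcr11* and *Uqcrq*, all among the 10 genes with the greatest spread between mice. Half-widths ran from 0.050 to 0.31 with a median of 0.087.

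**Figure D1:**
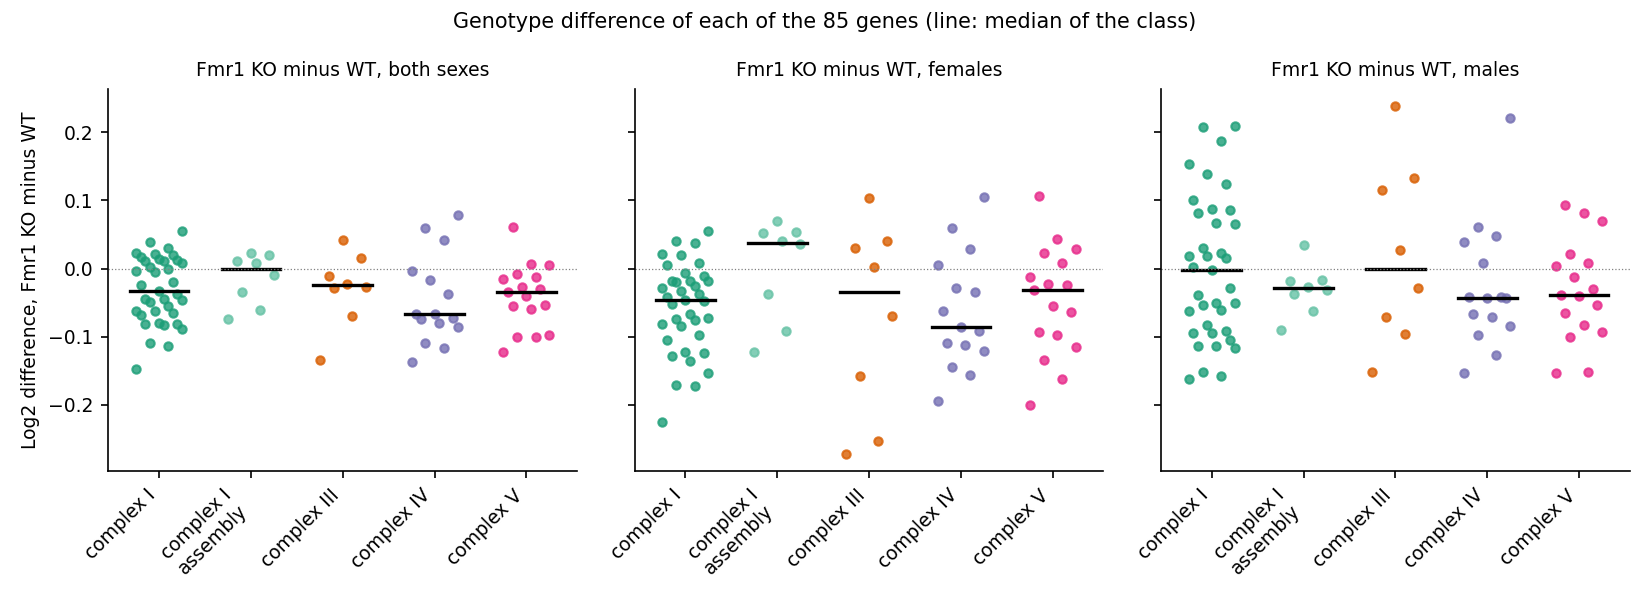
Each point is the log2 difference of *Fmr1* KO from WT (y axis) for 1 of the 85 genes, in panels for both sexes, females and males, grouped by respiratory complex (x axis), with a line at the median of each class. Over both sexes the points lie between -0.15 and 0.079, and the class medians between -0.067 and -0.00047.

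By complex, the medians over both sexes lay at or just below 0. They were -0.033 for complex I (24 of 37 genes on the lower side), -0.00047 for the complex I assembly factors (4 of 8), -0.025 for complex III (6 of 8), -0.067 for complex IV (12 of 15) and -0.035 for complex V (14 of 17). Single mice carried much of this: the median over all 85 genes was -0.011 without WT male 1, -0.016 without KO female 4 and -0.020 without WT female 1. With the mean level of cytosolic ribosomal protein genes in the model the median was 0.0031, on the other side of 0. No gene of the 85 was called in that fit, where 0.472% of all genes tested were. The level of each class in the mice was taken as the mean rlog after each gene was centred on its mean over all mice. For complex IV the females did not overlap, at -0.084 to -0.053 in KO females against -0.034 to 0.010 in WT females. KO males lay at -0.036 to 0.063 and WT males at -0.056 to 0.23. Other lists were apart by genotype within a sex too, such as the microglial markers in females (-0.14 to -0.054 in KO, 0.056 to 0.13 in WT). For complex I the genotypes overlapped in each sex, and the level was -0.17 to -0.0063 in KO females and 0.026 to 0.10 in KO males, against -0.067 to 0.042 in WT females and -0.021 to 0.25 in WT males.

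**Figure D2:**
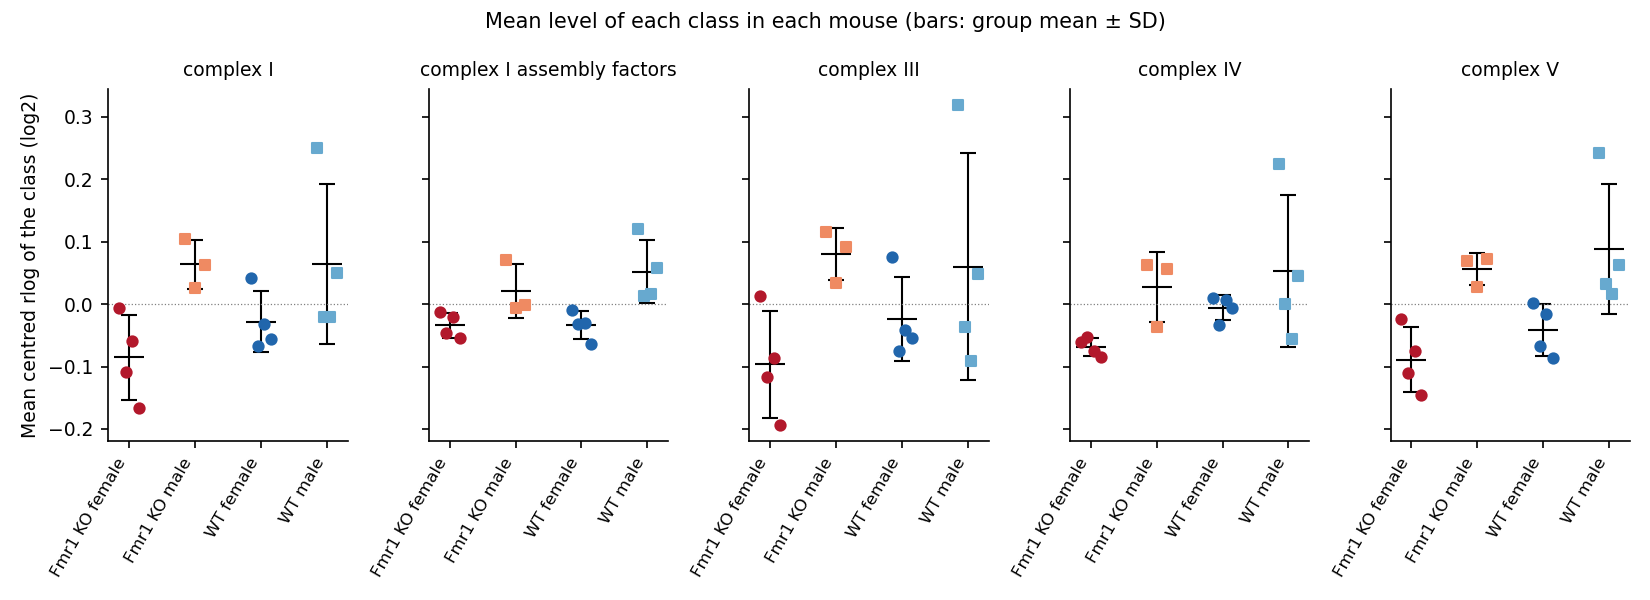
The mean centred rlog of each class (y axis, log2) is shown for each mouse, with bars for the group mean ± SD (4 *Fmr1* KO females, 3 *Fmr1* KO males, 4 WT females, 4 WT males). In WT males 1 mouse stands above all others in each of the 5 classes, at 0.25 for complex I and 0.32 for complex III.

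The genes nearest to the threshold came from complexes I, IV and V. *Atp5k* (chr5:108433244-108434448), the e subunit of ATP synthase, which lies where the enzyme's dimers meet, had rlog values of 9.71, 9.76, 9.67 and 9.72 in KO females and 9.87, 9.77 and 9.77 in KO males, against 9.75, 9.81, 9.88 and 9.81 in WT females and 10.07, 9.94, 9.89 and 9.91 in WT males. The KO mice lay toward the low end, but KO female 2 and all KO males were above the lowest WT mouse. Its log2 difference was -0.12 ± 0.034 (SE), with an adjusted p of 0.068 by limma. *Ndufa1*, an X-linked accessory subunit of complex I, differed by -0.15 ± 0.046 (adjusted p = 0.0834 by limma). *Ndufs4* (chr13:114287795-114388258), an accessory subunit whose loss causes Leigh-like disease, differed by -0.11 ± 0.036 (adjusted p = 0.0883 by limma).

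In complex IV the smallest p belonged to a gene on the higher side. *Cox7a1* (chr7:30184144-30186078) had rlog values of 3.92, 3.96, 4.04 and 3.93 in KO females and 3.97, 3.94 and 3.89 in KO males, against 3.90, 3.86, 3.83 and 3.84 in WT females and 3.88, 3.91, 3.86 and 3.89 in WT males. Only KO male 4 lay within the range of the WT mice, and the difference was 0.079 ± 0.023 (adjusted p = 0.0744 by limma). It has the lowest mean of the 85, at a level where rlog values are drawn together. *Cox7c* and *Cox6c*, small subunits of complex IV, differed by -0.14 ± 0.049 (adjusted p = 0.117) and -0.12 ± 0.042 (adjusted p = 0.118, both limma).

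Leaving out single mice brought some of these genes past the threshold. Without WT female 1, 5 genes were called, *Atp5k*, *Ndufa1*, *Ndufs4* and *Cox7a1* among them, where 9.46% of all genes tested were called. Without WT male 3, 4 were called, *Ndufa1*, *Cox7c*, *Cox6c* and *Atp5k* (7.21% of all genes), and without KO female 2, *Atp5k* and *Ndufs4* (5.91% of all genes). Limma's sample quality weights gave 15 called genes of 85, while the share called over all genes tested was then 31.2%. A fixed set of core and catalytic subunits and of widely used subunits without a redox center had these values in the fit over both sexes: *Ndufs1* -0.0032 ± 0.034, *Ndufv1* 0.013 ± 0.048, *Uqcrfs1* -0.011 ± 0.037, *Uqcrc1* 0.015 ± 0.066, *Cox5a* -0.0041 ± 0.035, *Atp5a1* -0.040 ± 0.041 and *Atp5b* -0.031 ± 0.038 (log2 difference ± SE, limma, none called). *Cox4i1* was at -0.074 ± 0.064.

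In females alone (4 KO and 4 WT mice), the question was the same within a sex. No gene of the 85 was called, and 0.0131% of all genes tested were. The median log2 difference was -0.042, with 60 genes on the lower side, where 48.8% of all genes tested were on that side. The median was -0.023 without KO female 4, -0.063 without KO female 1 and -0.0023 with the cytosolic ribosomal protein score in the model. At an unadjusted p under 0.05 there were 8 lower and 1 higher, against 14.5% of all genes tested. *Cox7c* had rlog values of 8.79, 8.75, 8.75 and 8.73 in KO females, against 8.997, 8.95, 8.92 and 8.92 in WT females. Each KO female was below each WT female, and the difference was -0.19 ± 0.043 with an adjusted p of 0.218 by limma. How many of all genes tested were apart in this way within females was not counted. *Uqcr11*, a small subunit of complex III, was at -0.27 ± 0.084, and *Cox6a1*, the ubiquitous isoform of subunit 6a, at -0.16 ± 0.050 (adjusted p = 0.248 and 0.255 by limma).

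In males alone (3 KO and 4 WT mice), no gene of the 85 was called, and 0.00655% of all genes tested were, which is *Fmr1* alone. The paper's DESeq2 analysis reported many more genes in males. The median was -0.031, and 0.0058 without WT male 1. At an unadjusted p under 0.05 there were 7 lower and 0 higher, against 17.2% of all genes tested. Counting both directions together, 22 genes were at that level without WT male 1 and 26 with the cytosolic ribosomal protein score in the model. For those fits the share of all genes at that level was not counted, so these counts have no background beside them. *Ndufs4* had rlog values of 10.38, 10.35 and 10.40 in KO males, against 10.58, 10.53, 10.49 and 10.54 in WT males. The male groups did not overlap, at a difference of -0.16 ± 0.045 with an adjusted p of 0.159 by limma. How many of all genes tested were apart in this way within males was not counted. *Uqcrb*, a subunit of complex III at the ubiquinone site, and *Cox7a2*, the ubiquitous relative of *Cox7a1*, were at -0.15 ± 0.047 and -0.15 ± 0.048 (adjusted p = 0.173 and 0.178 by limma). With the mean level of cytosolic ribosomal protein genes as a covariate, 2 genes were called in males, both on the higher side, where 1.8% of all genes tested were called.

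Whether the genotype difference depended on sex was tested with an interaction term, the difference in females minus that in males. No gene of the 85 and 0% of all genes tested were called by limma, and at an unadjusted p under 0.05 there were 2 of the 85 (2.35%), against 5.98% of all genes tested. That count moved with single mice. Without WT male 1 it was 25 of the 85 and the median was -0.040, against 2 and 0.0072 with all mice. It was 21 under sample quality weights and 0 without KO female 4, and none of the 85 was called in these fits. The share of all genes at that unadjusted level was not counted in these fits. Whether the 85 moved more than other genes there is therefore unknown. With all mice the 2 were *Uqcrb* (0.15 ± 0.066) and *Cox7a2* (0.12 ± 0.057), each with an adjusted p of 0.791. The interaction was less well determined than the other differences: its 95% interval lay within 0.5 log2 units of 0 for 70 of the 85 genes. *Uqcrq*, with an estimate of -0.49 ± 0.27, had the widest interval.

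The sexes differed more than the genotypes. Females were compared with males within WT mice as a reference for the size of differences between groups of the same genotype, and 13 of the 85 genes were called, 12 of them lower in females and 1 higher. That is 15.3% of the 85, where 2.82% of all genes tested were called and 1.65% were called lower in females. The median log2 difference of WT females from WT males was -0.091, with 69 of 85 genes on the lower side, against 0.0037 and 48.4% over all genes. Without WT male 1 the median was -0.038 and 10 genes were called, 8 lower and 2 higher (3.13% of all genes tested). The count was 3 without WT female 2 (0.904% of all genes) or WT female 4 (0.891%) and 6 without WT male 2 (1.13%). It was 7 without WT male 3 (1.33%), WT male 4 (1.92%), KO male 1 (2.24%) or KO male 3 (2.14%), and 8 without KO male 4 (2.26%). It was 2 when the WT mice were fitted alone (0.249%). Where the count was 8 or less, the share of all genes called was lower too. How litters, cages or dissection days fell to the sexes is not given in the sources used here, and sex and any such grouping cannot be told apart.

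The comparison of *Fmr1* KO females with *Fmr1* KO males uses other mice, and was added after the WT result had been seen. It gave 3 called genes, all lower in females, where 0.832% of all genes tested were called and 0.216% called lower. The median was -0.096, with 65 of the 85 genes on the lower side and 20 on the higher, where 49.3% of all genes tested were on the lower side. The count was 14 without WT male 1 (2.58% of all genes tested), 5 without KO female 1 (1.04%) and 2 without KO female 4 (0.315%). It was 1 without KO male 1 (0.151%) or KO male 4 (0.19%), and 1 when the KO mice were fitted alone (0.0524%). Of the 85 genes, 58 were lower in females in each genotype, 9 were higher in each and 18 had opposite signs, where all genes tested split into 29.9%, 32.3% and 37.8%. *Cox5a* and *Ndufc1* were the genes called in each genotype. Both comparisons take their spread from the model of all 4 groups, so they are not fully independent.

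**Figure D3:**
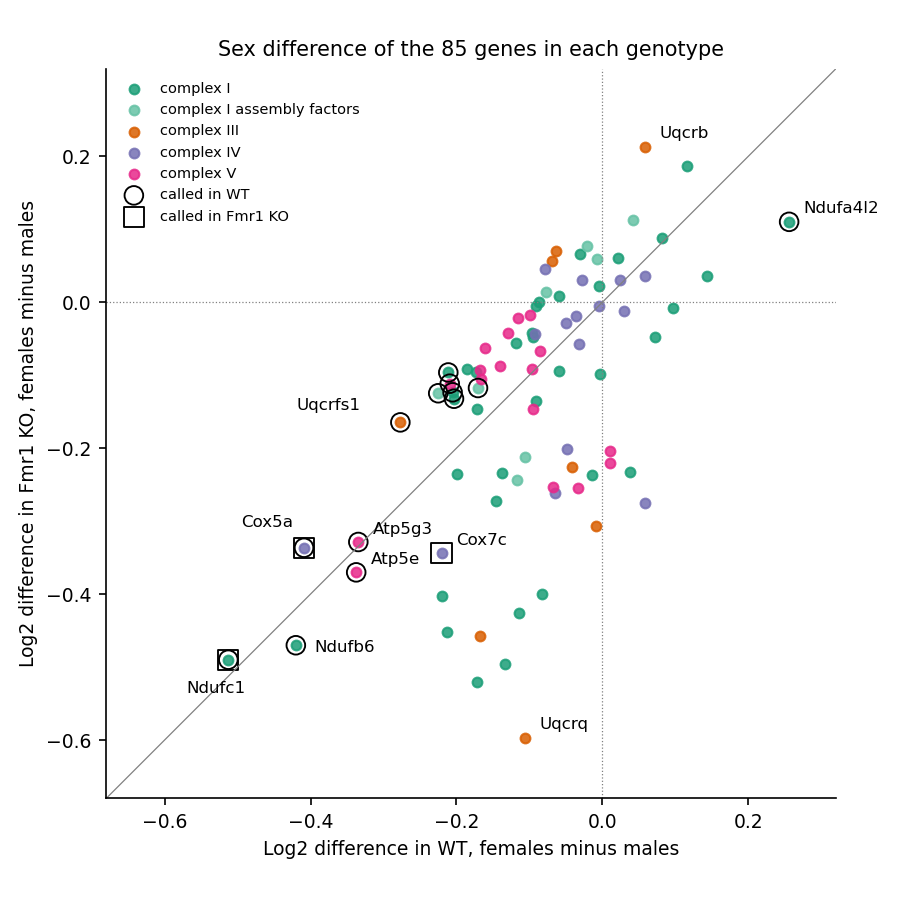
Each point is 1 of the 85 genes, with the log2 difference of females from males in *Fmr1* KO mice (y axis) against that in WT mice (x axis), colored by class, and the diagonal marks equal differences. Squares mark the 3 genes called in *Fmr1* KO mice and circles the 13 called in WT mice, with *Ndufc1* and *Cox5a* at the lower left.

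Taking the sexes over both genotypes, a comparison that uses the same mice again, 26 of the 85 genes were called, 23 lower and 3 higher in females, where 7.35% of all genes tested were called and 3.6% called lower. The count was 17 without KO male 4 (4.82% of all genes tested), 19 without KO female 4 (5.39%) and 26 without WT male 1 (7.35%). All 8 females were below all 7 males for 10 of the 85 genes, where this held for 1.35% of all genes tested. The 10 were *Atp5e*, *Atp5g3*, *Cox5a*, *Ndufa4*, *Ndufaf4*, *Ndufaf5*, *Ndufb6*, *Ndufb8*, *Ndufc1* and *Uqcrfs1*. Within a genotype, the KO females were all below the KO males for 39 genes (9.19% of all genes tested), and the WT females all below the WT males for 21 (5.62%).

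*Ndufc1* (chr3:51404677-51408988), an accessory subunit of the membrane arm of complex I, showed the greatest sex difference among the called genes. Its rlog values were 8.06, 7.98, 8.07 and 8.00 in KO females and 8.54, 8.53 and 8.48 in KO males, and 8.19, 8.03, 8.08 and 8.09 in WT females and 8.76, 8.56, 8.52 and 8.61 in WT males. Every female lay below every male in each genotype. The log2 difference of females from males was -0.49 ± 0.060 in KO mice (adjusted p = 0.0021) and -0.51 ± 0.055 in WT mice (adjusted p = 0.000419, both limma). It was called in all 15 fits that left out a mouse, in each genotype.

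*Cox5a* (chr9:57521274-57532426), a nuclear subunit on the matrix side of complex IV, was the other gene called in each genotype. Its rlog values were 9.90, 9.87, 9.97 and 9.91 in KO females and 10.27, 10.19 and 10.28 in KO males, and 9.90, 9.80, 9.93 and 9.89 in WT females and 10.40, 10.20, 10.29 and 10.27 in WT males. The sexes were again apart, with about the same levels in the genotypes. The log2 difference was -0.34 ± 0.050 in KO mice (adjusted p = 0.0068) and -0.41 ± 0.047 in WT mice (adjusted p = 0.000567, both limma). In KO mice the call was lost without KO male 1 or without KO male 4, and in WT mice it was kept in all 15 fits. Fitted on the mice of 1 genotype alone, it was lost in KO mice and kept in WT mice.

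The 150 bases that precede the RefSeq start of *Ndufc1* (chr3:51408956-51409105, minus strand) and *Cox5a* (chr9:57521082-57521231, plus strand), read from RefSeq on GRCm38.p6 and written 5′ to 3′ in the direction of transcription, are shown because these were the genes called in each genotype.
Ndufc1: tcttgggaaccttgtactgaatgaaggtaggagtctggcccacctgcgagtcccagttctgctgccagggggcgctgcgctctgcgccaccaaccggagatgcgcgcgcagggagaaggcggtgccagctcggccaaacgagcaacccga
Cox5a: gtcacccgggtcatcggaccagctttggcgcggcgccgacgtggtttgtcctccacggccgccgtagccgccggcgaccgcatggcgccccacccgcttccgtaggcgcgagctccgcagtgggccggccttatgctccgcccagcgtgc
Neither stretch held any of the 3 motifs searched below, and *Ndufc1* had a YY1 core past it, at 23 after the start.

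In complex III, *Uqcrfs1* (chr13:30540308-30545362), the Rieske iron-sulfur protein that takes electrons from ubiquinol, had rlog values of 10.51, 10.42, 10.44 and 10.40 in KO females and 10.63, 10.60 and 10.59 in KO males, and 10.49, 10.35, 10.43 and 10.33 in WT females and 10.79, 10.65, 10.68 and 10.60 in WT males. The females were below the males in each genotype, at -0.16 ± 0.052 in KO mice (adjusted p = 0.134) and -0.28 ± 0.048 in WT mice (adjusted p = 0.0083, both limma). It was the remaining gene that was called in WT mice whichever mouse was left out, but the call was lost when the WT mice were fitted alone. Whether the sex difference itself differed between genotypes is the interaction, at 0.11 ± 0.070, which was not called. *Uqcrb* went the other way: its log2 difference over both genotypes was 0.14 ± 0.033 (adjusted p = 0.0228 by limma), a call lost without KO male 3 or KO male 4, and *Uqcrc1* and *Uqcrc2*, the core proteins, were at -0.13 ± 0.064 and 0.0032 ± 0.035, not called.

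In complex V, *Atp5g3* (chr2:73908447-73911326), which encodes the c subunit of the membrane rotor, had rlog values of 10.75, 10.56, 10.64 and 10.57 in KO females and 10.98, 10.92 and 10.97 in KO males, and 10.74, 10.64, 10.63 and 10.60 in WT females and 11.22, 10.88, 10.94 and 10.92 in WT males. The groups of each sex were apart although WT male 1 was far above the other males. The difference was -0.33 ± 0.073 in KO mice (adjusted p = 0.0520) and -0.33 ± 0.068 in WT mice (adjusted p = 0.0192, both limma). The WT call was lost without WT female 2 or WT female 4, and when the WT mice were fitted alone. The c subunit has further genes, and of these *Atp5g1* and *Atp5g2* were not called in any comparison. *Atp5e*, the epsilon subunit of the central stalk, was at -0.37 ± 0.091 in KO mice (adjusted p = 0.0669) and -0.34 ± 0.084 in WT mice (adjusted p = 0.0465, both limma), and *Atp5mpl*, a small membrane subunit, at -0.11 ± 0.054 and -0.21 ± 0.050 (adjusted p = 0.317 and 0.0372 by limma).

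All 17 genes of complex V were on the lower side in females over both genotypes, with a median of -0.11, and 5 were called. Of all genes tested, 49.7% were on the lower side, 7.35% were called and 3.6% were called lower. The alpha subunit and the catalytic beta subunit were not among the called genes. *Atp5a1* and *Atp5b*, which encode them, were at -0.12 ± 0.042 (adjusted p = 0.0999) and -0.076 ± 0.039 (adjusted p = 0.277, both limma).

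**Figure D4:**
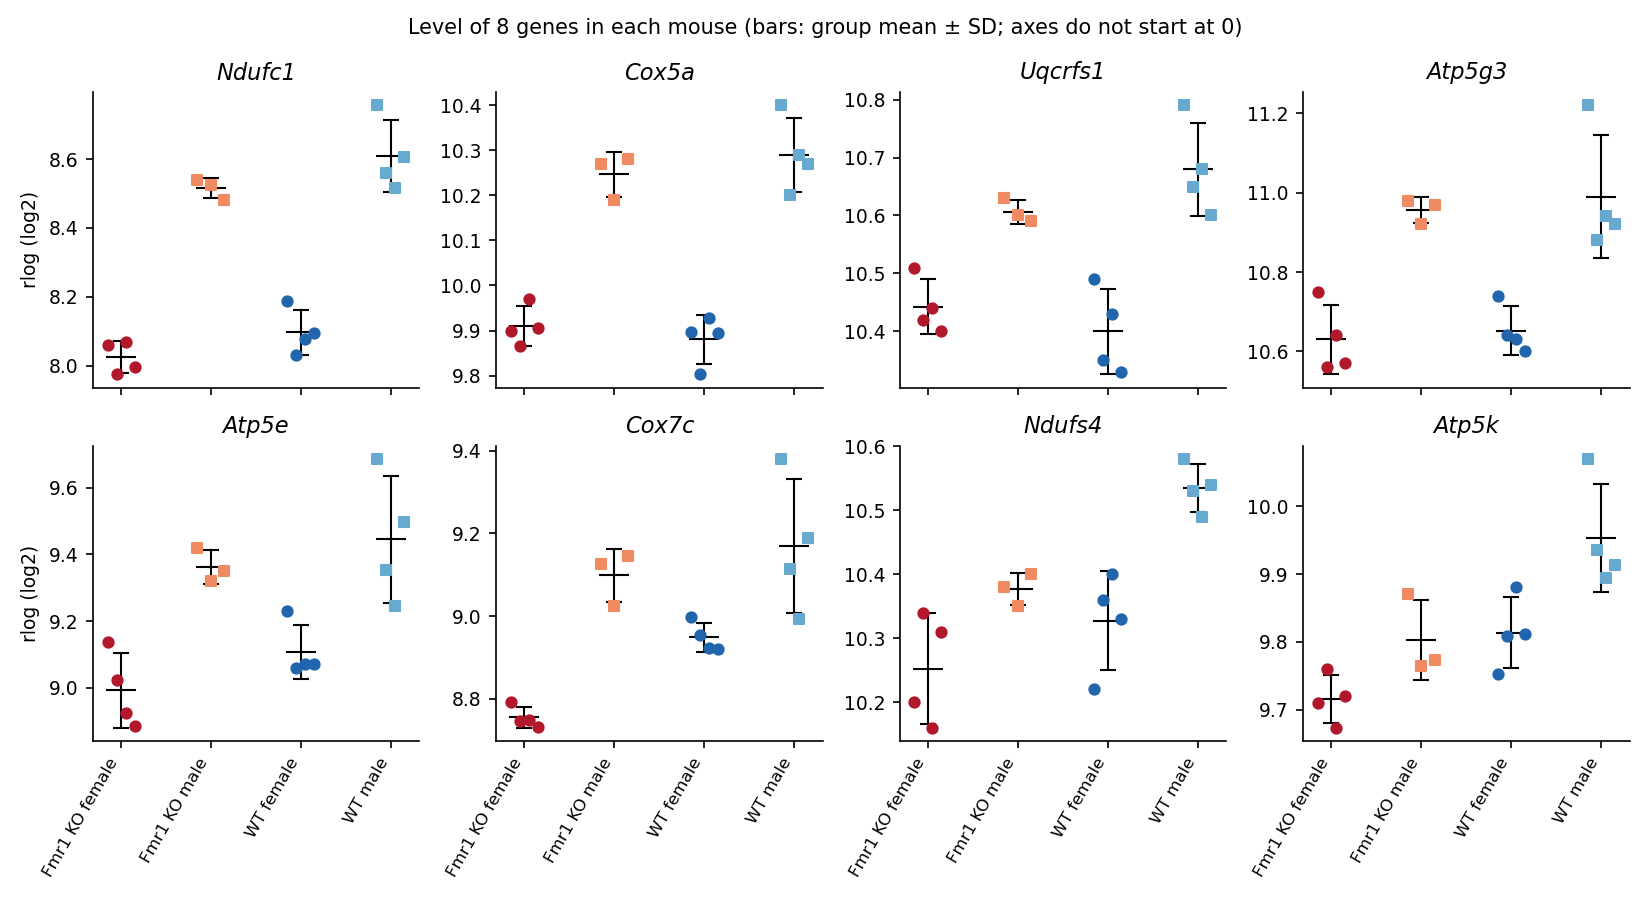
The rlog values (y axis, log2, not starting at 0) of 8 genes are shown for each mouse, with bars for the group mean ± SD (4 *Fmr1* KO females, 3 *Fmr1* KO males, 4 WT females, 4 WT males). For *Ndufc1* and *Cox5a* the females of each genotype lie below all males, while *Ndufs4* and *Atp5k* are highest in WT males.

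In complex I, 1 of 37 genes was called in KO mice and 6 in WT mice, where 0.832% and 2.82% of all genes tested were called. *Ndufb6*, a membrane arm subunit, was at -0.47 ± 0.11 in KO mice (adjusted p = 0.0660) and -0.42 ± 0.11 in WT mice (adjusted p = 0.0483, both limma). *Ndufs4* was at -0.12 ± 0.052 in KO mice, not called, and at -0.21 ± 0.049 in WT mice (adjusted p = 0.0358 by limma). *Ndufa4*, named as a complex I gene though its protein is now placed with complex IV, was at -0.13 ± 0.047 in KO mice and -0.20 ± 0.044 in WT mice (adjusted p = 0.181 and 0.0238 by limma), and *Ndufb5* at -0.096 ± 0.050 and -0.21 ± 0.046 (adjusted p = 0.351 and 0.0264 by limma). Of the 7 nuclear-encoded core subunits, all were on the lower side in WT females, as were 48.4% of all genes tested, and none was called there. Over both genotypes *Ndufs3* (-0.13), *Ndufv1* (-0.21) and *Ndufv2* (-0.16) were called lower in females, chosen here after their values were seen. Several of the WT calls rested on single mice: of 15 fits that left out a mouse, the call was kept in 3 for *Ndufb6* and *Atp5e*, in 5 for *Ndufs4* and *Atp5mpl*, in 6 for *Ndufaf4*, in 7 for *Ndufa4l2*, in 11 for *Ndufa4* and *Ndufb5* and in 13 for *Ndufaf5*. All of these calls were lost when the WT mice were fitted alone.

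*Ndufa4l2* was the gene called higher in WT females. Its rlog values were 5.53, 5.71, 5.81 and 5.66 in KO females and 5.58, 5.60 and 5.51 in KO males, and 5.71, 5.76, 5.85 and 5.88 in WT females and 5.59, 5.59, 5.45 and 5.54 in WT males. The sexes were apart in WT mice, where 4.37% of all genes tested had every WT female above every WT male, and overlapped in KO mice. The difference was 0.11 ± 0.065 in KO mice (adjusted p = 0.418) and 0.26 ± 0.060 in WT mice (adjusted p = 0.0339, both limma), and the interaction of -0.15 ± 0.088 was not called. In brain vessels this gene is known from pericytes, and the pericyte and smooth muscle markers had a median log2 difference of -0.010 in KO mice and 0.13 in WT mice, with 4 of 10 and 9 of 10 on the higher side in females and scores that ran from -0.028 to 0.26 in WT females and from -0.18 to 0.075 in WT males. Their part in the result was not tested.

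The assembly factors *Ndufaf4* and *Ndufaf5*, which act early in building complex I, were at -0.12 ± 0.044 and -0.12 ± 0.048 in KO mice, not called, and were lower in WT females, at -0.17 ± 0.041 (adjusted p = 0.0366) and -0.23 ± 0.045 (adjusted p = 0.0174, both limma). In complex IV, *Cox7c* (chr13:86044816-86046904) was called in KO mice beside *Cox5a*. With the KO female values given above and 9.13, 9.02 and 9.15 in KO males, the females were below the males by -0.34 ± 0.071 (adjusted p = 0.0355 by limma), against -0.22 ± 0.065 in WT mice (adjusted p = 0.0959 by limma). The call in KO mice was kept in 5 of 15 fits that left out a mouse, and lost when the KO mice were fitted alone. The other 13 genes of complex IV were not called in any sex comparison.

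Promoters were searched for the cores of 3 factors known to act on respiratory chain genes, from 250 bases before to 50 after the RefSeq start, on both strands: NRF1 (CGCANGCG), GABPA and other ETS factors (CCGGAAG) and YY1 (AAGATGGCG). A promoter was at hand for 70 of the 85 genes. The NRF1 core was in 25 of them (35.7%), against 9.22% of all genes with a promoter and 17.9% of those tested here. The GABPA core was in 16 (22.9%), against 9.93% and 17.7%, and the YY1 core in 8 (11.4%), against 1.64% and 3.07%. Of the 26 genes called between the sexes over both genotypes, 5 held each core. Any of the 26 without a promoter at hand counted as lacking the core, and their number was not taken. These counts therefore cannot be set against the percentages above. Matches of this kind are letters in a window and no measure of binding.

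A pair of genes with all females below all males show what such matches look like, in the 150 bases before the start with the core in capitals: *Atp5e* (chr2:174464102-174464251, minus strand), with the GABPA core on the other strand at -102, and *Ndufaf4* (chr4:24897933-24898082, plus strand), with the NRF1 core at -112, both from RefSeq on GRCm38.p6.
Atp5e: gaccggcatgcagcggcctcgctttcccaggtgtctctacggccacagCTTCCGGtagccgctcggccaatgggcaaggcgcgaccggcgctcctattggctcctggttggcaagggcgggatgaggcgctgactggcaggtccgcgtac
Ndufaf4: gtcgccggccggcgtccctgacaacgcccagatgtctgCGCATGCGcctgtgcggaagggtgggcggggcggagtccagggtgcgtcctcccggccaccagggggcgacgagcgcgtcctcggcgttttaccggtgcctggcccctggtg

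Other genes of mitochondrial energy metabolism were read from lists beside the 85. In the comparison of genotypes over both sexes none of them was called in complex II (8 genes, median log2 difference -0.036), complex IV assembly (22 genes, -0.014), the citric acid cycle (16 genes, 0.018), glycolysis (16 genes, -0.013), regulators of mitochondrial biogenesis (12 genes, -0.018) or mitochondrial ribosomal proteins (78 genes, -0.0100). Between the sexes in WT mice, 2.82% of all genes tested were called. In complex II 2 of 8 were called, both lower in females: *Sdhd*, a membrane anchor, at -0.20 and *Sdhaf4*, an assembly factor, at -0.38. Complex IV assembly had 3 of 22, all lower (*Coa6*, *Cox11* and *Higd1a*). *Tmem70*, which helps to assemble ATP synthase, was lower by -0.27, *Pdhb* of pyruvate dehydrogenase by -0.17 and *Pgk1* of glycolysis by -0.23. In KO mice, where 0.832% of all genes tested were called, none of these was called (*Sdhd* -0.15, *Sdhaf4* -0.13, *Tmem70* -0.15). Other genes were higher in females. *Bcs1l*, which inserts the Rieske protein into complex III, was called in KO mice at 0.25 and was at 0.16 in WT mice, not called. Of the 78 mitochondrial ribosomal protein genes, 2 were called in KO mice, both higher (*Mrpl42* and *Mrps25*), and 6 in WT mice, 3 higher and 3 lower.

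Cytosolic ribosomal protein genes, short and strongly expressed like many of the 85, moved beside them. Their median log2 difference was -0.085 between KO females and KO males and -0.056 between WT females and WT males. Of 94 genes 3 and 6 were called, all lower, where 0.832% and 2.82% of all genes tested were called. Their score was highest in WT male 1 (0.20). With that score as a covariate the count over both genotypes was 16 of the 85 genes, 11 lower and 5 higher (5.25% of all genes tested). The median was then -0.027, and within KO mice and within WT mice the medians were -0.016 and -0.041. The projection neuron markers had a median of -0.17 between KO females and KO males and -0.011 between WT females and WT males, and the thalamic, hypothalamic and septal-pallidal markers -0.36 and 0.015. Once the projection neuron score was in the model, 9 genes were called in KO mice, 8 lower and 1 higher, where 2.78% of all genes tested were called.

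The spread between mice of a group differed widely among the 85 genes, with a within-group SD of 0.034 to 0.29 and a median of 0.075. *Uqcrq*, a small subunit of complex III, had the greatest, and its rlog values were 9.03, 8.65, 8.78 and 8.47 in KO females and 9.47, 9.21 and 9.31 in KO males, and 9.24, 8.93, 8.74 and 9.03 in WT females and 9.72, 8.84, 8.69 and 9.12 in WT males. Mouse 1 was the highest of each group. *Ndufs7*, *Ndufb7*, *Uqcr11*, *Ndufa7*, *Uqcr10*, *Ndufa11*, *Cox6a2*, *Cox6a1* and *Ndufa13* followed. WT male 1 was the highest mouse for 9 of these 10 genes and KO female 4 the lowest for 8. The median coding transcript length was 558 bases in the 10 and 755 bases in the other 75, and it was 742 bases for all 85, against 2790 bases for all genes tested with a length.

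**Figure D5:**
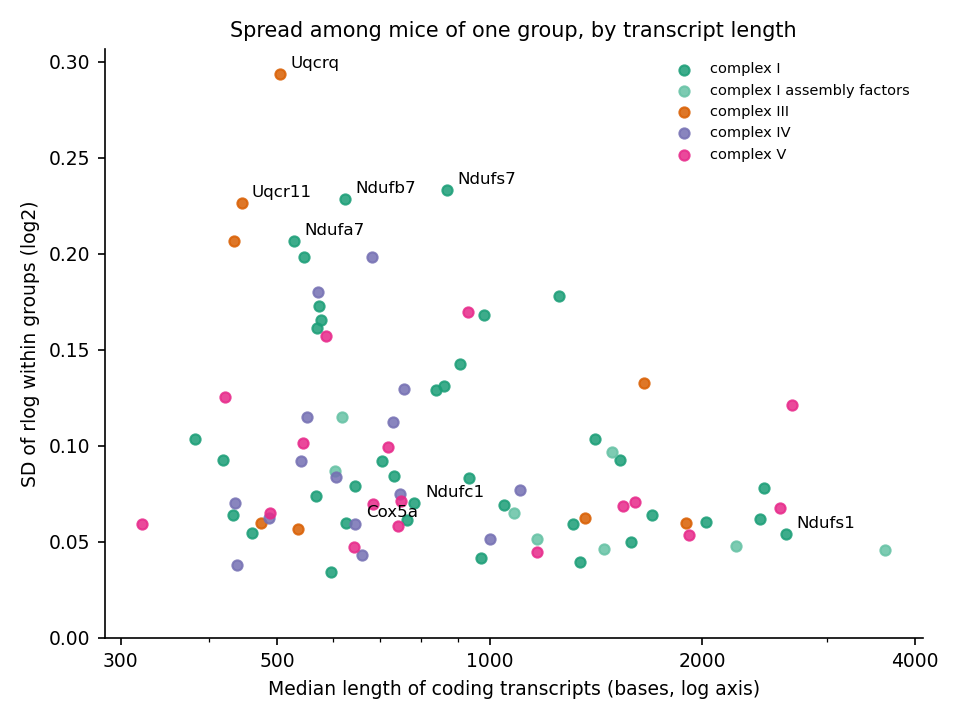
Each point is 1 of the 85 genes, with the SD of its rlog values within groups (y axis, log2) against the median length of its coding transcripts in bases (x axis, log scale), colored by class. *Uqcrq* stands highest at an SD of 0.29 and 504 bases, *Ndufs7* follows at 0.23 and 870.5 bases, and *Cox5a* (0.059) and *Ndufc1* (0.070) lie just under the median of 0.075.

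Some of the 85 genes share bases with another gene, and whether the counting used the strand was not given in the sources used here. Exons of 3 genes (*Ndufb2*, *Ndufb8* and *Ndufb9*) overlapped another gene on the same strand, and 22 overlapped one on the other strand only. For *Cox5a* that gene is *Gm26631*, which was not among the genes tested. For *Ndufa4l2* it is *Shmt2*, which had a log2 difference of -0.095 between KO females and KO males and 0.073 between WT females and WT males, not called.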

How the data were processed

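Ventral striatum RNA of 15 mice was analysed. The authors made TruSeq stranded mRNA libraries, read them as paired ends, aligned them with STAR to UCSC mm10 and used DESeq2. The deposited values are rlog values (log2 scale, library size corrected) made by the authors. Read counts were not used here, so depth is unknown and the spread between mice limits the precision. No source says how litters or batches fell to the groups.

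Genes whose rlog averaged 3 or more over the mice (15261) were fitted with limma 3.58.1 in R 4.3.3 (variance trend, 2-sided moderated test, Benjamini-Hochberg adjustment over all genes tested, threshold 0.05). Over both sexes, sex was an additive term. Each sex was also fitted alone, and the interaction and the sex differences came from the model of 4 group means. The sex comparisons in KO mice and over both genotypes, and the covariate fits on ribosomal protein and thalamic marker scores, were added after the data were seen. The fits were tested on simulated data. Plots used matplotlib 3.10.9 in Python 3.11.15.

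The members and lists were chosen with earlier results of these data known. Genes are named where called in a planned comparison, where among the 2 highest and 2 lowest of a class over both sexes or the 3 smallest p of the interaction or of a sex, where the highest or lowest in level of a class, and from a fixed set of core subunits and tissue isoforms. Others were named after their values were seen, and 1 gene of the fixed set is not reported here.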

Additional observations from a re-analysis of the deposited data

Results flagged for a closer look

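The 42 named genes and 6 mean levels (the 5 classes and all 85 genes) were looked at in each group of 4 mice, and 3 of these 144 sets had a mouse set apart from the other mice of its group by Dixon's ratio at the 95% level, which chance gives in about 1 in 20. *Atp5e* had an rlog value of 9.23 in WT female 1, against 9.06 to 9.07 in the other WT females. *Uqcrc1*, a core protein of complex III, had 11.72 in WT female 1, against 11.49 to 11.53. *Atp5b* had 14.14 in WT female 3, against 14.05 in each of the others. The groups of 3 KO males were not tested in this way.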

How the results depend on the processing

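No named gene or class turned its direction while called. Over both sexes, 0 of the 85 genes were called between *Fmr1* KO and WT mice (1.28% of all genes tested). The count was 0 to 5 when each mouse was left out in turn (0.0328% to 9.46% of all genes) and 15 under sample quality weights (31.2%). In males 0 were called, with 2 under weights (12.2% of all genes) and 2 with the ribosomal protein score as a covariate (1.8%). In females and for the interaction 0 were called under every setting run. Between WT females and WT males 13 were called (2.82% of all genes), with 3 to 13 in the fits that left out a mouse (0.891% to 3.13%). The count was 21 under weights (9.41%) and 2 with WT mice alone (0.249%). Between KO females and KO males 3 were called (0.832% of all genes), with 1 to 14 in the fits that left out a mouse (0.118% to 2.58%). The count was 14 without WT male 1 (2.58%), 1 without KO male 1 (0.151%) or KO male 4 (0.19%) and 5 without KO female 1 (1.04%). That count was 5 with a minimum mean rlog of 6 (1.56%), with quantile normalization (1.36%) and with centring on the sample medians (1.23%). It was also 5 with the thalamic, hypothalamic and septal-pallidal score (1.83%). The projection neuron score gave 9 (2.78%), weights gave 24 (7.19%) and KO mice alone gave 1 (0.0524%). Over both genotypes 26 were called (7.35% of all genes), with 17 to 27 in the fits that left out a mouse (4.48% to 7.38%). The count was 17 without KO male 4 (4.82%), 40 under weights (15.1%) and 16 with the ribosomal protein score (5.25%). The cause of these shifts was not tested.

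The replicate numbers in the labels do not say that mice share a litter or day. Of 21 same-numbered pairs, 17 had a correlation of deviations over 0.1 (range -0.26 to 0.61), and 9 of 15 mice correlated best with their own number. With the replicate block, 0 of the 85 genes were called between genotypes over both sexes, where 6.06% of all genes tested were called. In males, in females and for the interaction 0 were called, where 0% of all genes were. Between KO females and KO males 11 were called (1.46% of all genes), between WT females and WT males 15 (3.92%) and over both genotypes 33 (9.43%). The WT call of *Atp5mpl* was lost. Depth is unknown, so what depth limits could not be given, and rlog values understate differences of weakly expressed genes such as *Cox7a1*.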
